A study of Mus musculus with 24 samples.

Results

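Transcripts of the MHC class I antigen presentation machinery were followed in 2 mouse mammary tumor cell lines, D2.1 and D2A1, in culture and as tumors. The 10 genes were chosen by name as the classical heavy chains H2-K1 and H2-D1, the nonclassical heavy chains H2-Q4, H2-Q6, H2-Q7 and H2-T23, the light chain B2m, both subunits of the peptide transporter, Tap1 and Tap2, and the transactivator Nlrc5. All 10 were found by Ensembl identifier among the 35275 rows of the table for cultured cells and the 54532 rows of the table for tumors. Both lines derive from D2 hyperplastic alveolar nodules of BALB/c mice. D2A1 is the rapidly growing line and D2.1 the line used as a model of tumor dormancy, and each is a single established line. Bulk RNA-seq covered 3 replicates of each line in culture. Tumors were grown in the mammary fat pad (MFP) of adult female mice, with 4 tumors of each line from immunocompetent BALB/c mice and 5 of each from SCID-beige mice, which carry the Prkdc scid and Lyst beige mutations, lack T and B cells and have defective NK cells but keep macrophages and other myeloid cells. No gene was edited and no drug was given in these 6 groups. The paper collected tumors of both lines at a similar volume, and D2.1 tumors grow more slowly. Time in the mouse therefore differs with the line and cannot be told apart from it. The paper also reports that D2A1 tumors grew more slowly in BALB/c than in SCID-beige mice. Time in the mouse or tumor size may thus differ between the hosts of D2A1 tumors and cannot be told apart from the host. The labels number the replicates but do not say whether the cultures were grown separately, so p-values for cultured cells measure the spread between these samples, which may be technical.

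MHC class I molecules display short peptides from inside the cell to CD8+ T cells, and their absence or presence is also read by NK cells. A heavy chain pairs with beta-2-microglobulin in the endoplasmic reticulum, where the TAP1-TAP2 transporter delivers peptides cut by the proteasome and tapasin (Tapbp) helps to load them. Interferon gamma raises transcription of most of these genes through factors that include IRF1, and swaps catalytic proteasome subunits for the immunoproteasome subunits encoded by Psmb8, Psmb9 and Psmb10, while NLRC5 is a transactivator that works at the SXY box of class I promoters. In mice the nonclassical chains have narrower roles: H2-T23 encodes Qa-1, which presents leader peptides to NKG2A receptors, and the H2-Q6 and H2-Q7 products belong to the Qa-2 family.

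Library totals ran from 16837260 to 24818234 counted reads in cultured cells and from 13566949 to 18355153 in tumors. Levels are given as CPM, counts scaled to the library total after TMM normalization in edgeR. The limit of 3 counts was at 0.121 to 0.221 CPM, for counting error alone. BALB/c mice, the C.B-17 background of SCID-beige mice and lines derived from BALB/c carry the H-2d haplotype, whereas the mm10 (GRCm38) build named in the submitters' processing notes is of C57BL/6, which carries H-2b. Reads of polymorphic heavy chains may therefore be assigned to the wrong gene or lost. The share of 50-base stretches that a member's annotated transcripts have in common with other genes was 32.0% for H2-Q6, 26.4% for H2-Q7, 21.8% for H2-Q4, 13.6% for H2-T23, 12.8% for H2-D1 and 9.63% for H2-K1, against 0.655% for Tap2, 0.442% for Tap1 and 0% for B2m and Nlrc5. Single heavy chain values are thus uncertain in a way that B2m, Tap1, Tap2 and Nlrc5 are not, and the sum over all annotated heavy chain genes of the H2 region is given with them. H2-L, a further classical chain of H-2d, matched no name in the annotation. A bulk level cannot separate fewer cells of a type from less RNA per cell. In addition, replicate 1 of D2.1 tumors in BALB/c mice held 258 CPM of milk protein transcripts, with at most 0.7 CPM in the other tumors of its group, and replicate 4 held 136 CPM of skin keratin transcripts. Counts resting on these libraries are also given without both.

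The genes lie in 3 places of the GRCm38 build, by GENCODE M21. In the H2 region of chromosome 17 the order is H2-K1 (ENSMUSG00000061232, 33996017 to 34000347), Tap1 (ENSMUSG00000037321, 34187553 to 34197225), Tap2 (ENSMUSG00000024339, 34203527 to 34216321), H2-D1 (ENSMUSG00000073411, 35262730 to 35267499), H2-Q4 (ENSMUSG00000035929, 35379617 to 35385290), H2-Q6 (ENSMUSG00000073409, 35424850 to 35430055), H2-Q7 (ENSMUSG00000060550, 35439155 to 35443773) and H2-T23 (ENSMUSG00000067212, 36029773 to 36032855). B2m (ENSMUSG00000060802) is on chromosome 2 at 122147686 to 122153083, and Nlrc5 (ENSMUSG00000074151) on chromosome 8 at 94434356 to 94527272. Promoter sequences from RefSeq on GRCm38.p6 matched 8 of the 10 genes, all but Tap2 and Nlrc5, and the 250 bases before the annotated start are shown for 5 of them, so that a classical heavy chain (H2-K1), the pair that differed most between the lines (H2-Q6 and H2-Q7), the light chain and the transporter can be read side by side. The sequences are of the C57BL/6 reference, not of the H-2d alleles in these cells. Capitals mark matches to the motifs spelled out next, on either strand, with the sequence 5′ to 3′ in the direction of the gene:
H2-K1 (chr17:34000348-34000597, strand -): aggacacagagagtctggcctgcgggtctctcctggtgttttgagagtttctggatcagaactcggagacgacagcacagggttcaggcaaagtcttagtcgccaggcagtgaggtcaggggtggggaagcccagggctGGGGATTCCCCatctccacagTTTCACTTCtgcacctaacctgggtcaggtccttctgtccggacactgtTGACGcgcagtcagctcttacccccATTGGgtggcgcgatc
H2-Q6 (chr17:35424600-35424849, strand +): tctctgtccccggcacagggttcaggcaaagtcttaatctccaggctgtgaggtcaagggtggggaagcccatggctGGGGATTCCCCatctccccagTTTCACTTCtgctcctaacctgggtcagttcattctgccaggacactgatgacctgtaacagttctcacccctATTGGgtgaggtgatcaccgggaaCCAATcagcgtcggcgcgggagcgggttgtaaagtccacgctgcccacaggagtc
H2-Q7 (chr17:35438905-35439154, strand +): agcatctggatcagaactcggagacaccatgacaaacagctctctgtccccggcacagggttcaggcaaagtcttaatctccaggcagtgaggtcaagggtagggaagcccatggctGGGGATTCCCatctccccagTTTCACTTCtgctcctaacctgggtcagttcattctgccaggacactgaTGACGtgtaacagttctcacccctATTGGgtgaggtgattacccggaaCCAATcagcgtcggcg
B2m (chr2:122147437-122147686, strand +): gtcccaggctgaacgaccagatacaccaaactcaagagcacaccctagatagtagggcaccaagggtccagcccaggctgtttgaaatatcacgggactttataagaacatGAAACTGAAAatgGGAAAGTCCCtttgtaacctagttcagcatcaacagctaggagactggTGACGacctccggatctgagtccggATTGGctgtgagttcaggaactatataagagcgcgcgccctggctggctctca
Tap1 (chr17:34187306-34187555, strand +): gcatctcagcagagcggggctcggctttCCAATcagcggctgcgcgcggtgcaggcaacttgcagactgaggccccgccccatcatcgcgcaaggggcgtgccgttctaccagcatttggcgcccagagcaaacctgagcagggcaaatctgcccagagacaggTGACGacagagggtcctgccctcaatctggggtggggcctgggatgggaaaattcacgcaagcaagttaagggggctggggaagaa

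Motifs were searched on both strands in the windows of all 8 genes and in 32851 promoter windows of the same length. The letters GGGA, any base, T, any 2 bases and CC, the form of a kappa-B element, were searched first. This form was present in 6 of 8 (H2-K1, H2-D1, H2-Q4, H2-Q6, H2-Q7 and B2m) and in 3.44% of all promoters. An interferon response form of 2 GAAA repeats with 2 bases between them was present in H2-T23 and B2m only, 2 of 8, and in 2.98% of all promoters. A form that is 1 base shorter, GAANNGAAA, which was added after the sequences had been read, was present in the other 5 heavy chain promoters, where it reads TTTCACTTC on the strand shown and lies downstream of the kappa-B form, and in 6.31% of all promoters. The core TGACG, as found in the X2 part of the SXY box, was present in 6 of 8 and in 17.8% of all, and it was missing from the H2-Q6 and H2-T23 windows. CCAAT, the core of the Y box, was present in 8 of 8 and in 33.8% of all. Both cores were searched singly, and their order differed. In H2-Q4 TGACG (-73 to -69) lies downstream of the CCAAT match on the other strand (-79 to -75). In Tap1 TGACG (-86 to -82) lies downstream of CCAAT (-222 to -218). A TGACG match alone therefore does not mark an X2 site. The gamma-activated form TTCNNNGAA was present in 0 of 8 and in 7.02% of all. In B2m the interferon form lies upstream of the kappa-B form, and the Tap1 window holds neither of the 2. The H2-Q6 and H2-Q7 windows, offset against each other by their annotated starts, had 70.7% identical columns. Tap1 and the immunoproteasome gene Psmb9 are transcribed away from each other, so the Tap1 window also lies at the start of Psmb9. These matches describe letters of the reference only.

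Levels differed between the 6 groups, over a wider range for H2-D1 than for B2m. H2-D1 was at 2765 ± 913 CPM (SD, n = 4) in D2.1 tumors in BALB/c mice, 1212 ± 415 CPM (n = 5) in D2.1 tumors in SCID-beige mice, 1399 ± 487 CPM (n = 4) in D2A1 tumors in BALB/c mice, 431 ± 80.0 CPM (n = 5) in D2A1 tumors in SCID-beige mice, 160 ± 54.5 CPM (n = 3) in cultured D2.1 cells and 71.1 ± 28.8 CPM (n = 3) in cultured D2A1 cells. B2m, in the same order, was at 2782 ± 692, 1455 ± 387, 1755 ± 526, 758 ± 121, 373 ± 114 and 321 ± 28.3 CPM. Among tumors, D2.1 in BALB/c mice had the highest mean and D2A1 in SCID-beige mice the lowest for all 10 genes. The groups in between, D2.1 in SCID-beige mice and D2A1 in BALB/c mice, overlapped for all 10 genes. Means in culture were below those of the same line's tumors in either host for every member, as the plot of levels by library shows. The cell and tumor tables were made with different gene lengths and from different material, so these values stand side by side without a test.

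**Figure D1:**
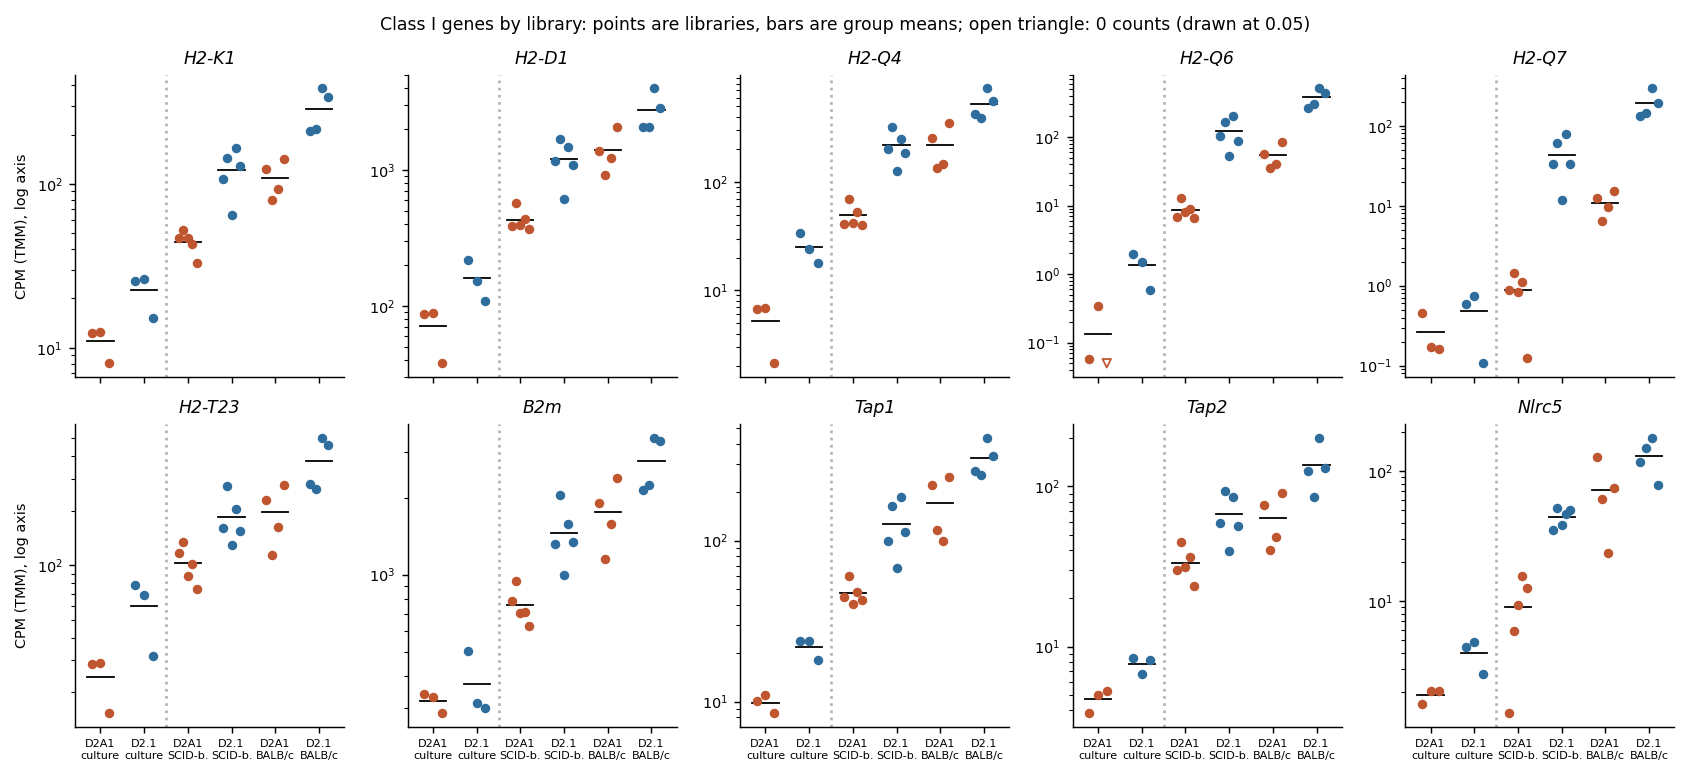
Level of each of the 10 genes in each library, in CPM on a log axis, by group (3 cultured replicates, 4 tumors in BALB/c mice and 5 tumors in SCID-beige mice of each line). Points are libraries, bars are group means and open triangles at 0.05 stand for libraries with 0 counts. D2.1 tumors in BALB/c mice have the highest mean for all 10 genes, and H2-Q6 and H2-Q7 separate the lines in tumors most widely.

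The cultured lines were compared to ask whether they differ in class I transcripts without a host. D2.1 cells had higher levels of H2-K1, H2-D1, H2-Q4, H2-Q6, H2-T23, Tap1, Tap2 and Nlrc5, whereas B2m differed by less than the spread between replicates. H2-K1 was at 25.7, 26.3 and 15.2 CPM in D2.1 cells against 12.3, 12.4 and 8.04 CPM in D2A1 cells, so the lines did not overlap and the third replicate was the lowest of each. Its log2 fold change was 1.03 (95% confidence interval 0.45 to 1.62), with an adjusted p of 0.0111 (edgeR quasi-likelihood test, Benjamini-Hochberg). H2-K1 and H2-D1 were among the genes the study displayed for these cultured cells, so their difference here is not independent evidence. By flow cytometry the paper reports similar surface MHC-I on the lines, with data from cultured cells and from tumors. The transcript differences given here, in culture and below in tumors, therefore do not show a difference in surface protein. H2-D1 differed by 1.17 (0.38 to 1.95) on the log2 scale. H2-Q4 stood at 33.8, 24.2 and 18.01 CPM against 6.69, 6.87 and 2.13 CPM, a larger step of 2.28 (1.34 to 3.22). All 3 D2.1 values lay above all 3 D2A1 values.

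H2-Q6 and H2-Q7, which lead the comparison in tumors, were close to the floor in culture. Counts of H2-Q6 were 36, 34 and 11 in D2.1 cells and 1, 6 and 0 in D2A1 cells, with a fitted log2 fold change of 3.31 and a wide interval of 1.40 to 5.21 (adjusted p = 0.0116, edgeR). H2-Q7 had 11, 17 and 2 counts in D2.1 cells and 8, 3 and 3 in D2A1 cells, so the lines overlapped and the gene did not pass the expression filter. H2-T23 had a log2 fold change of 1.29 (0.49 to 2.09). B2m read 505, 314 and 301 CPM in D2.1 cells against 341, 334 and 289 CPM in D2A1 cells, and its log2 fold change of 0.22 (-0.26 to 0.69) had an adjusted p of 0.433 (edgeR). The interval leaves room for a difference of up to 1.61-fold.

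The transporter and the transactivator moved with the heavy chains in culture. Tap1 was at 23.8, 23.9 and 18.2 CPM in D2.1 cells and at 10.0, 11.1 and 8.52 CPM in D2A1 cells. The lines did not overlap, and the log2 fold change was 1.16 (0.74 to 1.57; adjusted p = 9.5e-04, edgeR). Tap2 differed less, by 0.73 (0.24 to 1.22). Nlrc5 was low in both lines, at 4.41, 4.87 and 2.73 CPM against 1.62, 2.04 and 2.02 CPM, and its log2 fold change was 1.08 (0.39 to 1.77). In all, 8 of the 9 members tested were higher in D2.1 cells, where 24.2% of all tested genes were called higher. Of all 10 members, 8 had no overlap between the lines, where 28.6% of tested genes had none with D2.1 higher. The median log2 fold change was 1.16 over the tested members and -0.02 over all genes. The count fell to 4 without replicate 1 or 2 of D2.1 cells.

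In SCID-beige mice, D2.1 tumors had higher levels of all 10 members than D2A1 tumors. Qa-2 family transcripts differed most. H2-Q7 was at 33.5, 60.7, 11.9, 79.1 and 32.8 CPM in D2.1 tumors and at 0.895, 1.46, 0.837, 1.11 and 0.126 CPM in D2A1 tumors, where these are 13, 21, 12, 18 and 2 counts. The lowest D2.1 tumor thus lay above the highest D2A1 tumor, and the fitted difference was 48.8-fold (95% confidence interval 20.9 to 113.9). H2-Q6 was at 103, 165, 52.6, 205 and 87.6 CPM against 6.74, 12.9, 8.09, 8.97 and 6.63 CPM, a log2 fold change of 3.82 (3.07 to 4.57). Again the tumors of the lines did not overlap, and replicate 3 of the D2.1 tumors was the lowest for both genes.

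The other heavy chains differed less in this host. H2-Q4 had a log2 fold change of 2.14 (1.62 to 2.65), H2-D1 of 1.49 (0.98 to 1.99) and H2-K1 of 1.46 (0.97 to 1.94). H2-T23, the Qa-1 gene, had the smallest at 0.84 (0.38 to 1.30; adjusted p = 0.0087, edgeR), with D2.1 tumors at 129 to 274 CPM and D2A1 tumors at 74.3 to 135 CPM, which overlap. For B2m, D2.1 tumors read 1319, 2040, 998, 1579 and 1339 CPM and D2A1 tumors 789, 948, 708, 715 and 628 CPM. All D2.1 values were the higher ones, with a log2 fold change of 0.94 (0.53 to 1.35; adjusted p = 0.0019, edgeR).

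Tap1 and Tap2 rose by 1.42 (0.90 to 1.94) and 1.003 (0.50 to 1.51) on the log2 scale. Nlrc5 was at 35.3, 52.2, 38.7, 46.8 and 50.1 CPM in D2.1 tumors and at 1.38, 5.84, 9.35, 15.7 and 12.5 CPM in D2A1 tumors, and the fitted step was 2.32 (1.39 to 3.25; adjusted p = 0.0011, edgeR). D2.1 tumors were close to each other for this gene, whereas D2A1 tumors were widely spread without reaching the D2.1 values. The 10 of 10 members called compare with 17.2% of tested genes called higher in D2.1 tumors. The 8 of 10 without overlap compare with 12.0% of genes that passed the expression filter over all tumors. The median was 1.47 against 0.02 over all genes. With any one library left out, 10 members passed the test.

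In BALB/c mice the lines differed in the same direction for all 10 members, and 8 passed the test. H2-Q7 was at 133, 142, 294 and 194 CPM in D2.1 tumors and at 12.4, 6.44, 9.72 and 15.1 CPM in D2A1 tumors, with no overlap and a log2 fold change of 4.13 (3.37 to 4.89; adjusted p = 1.4e-05, edgeR). H2-Q6 read 268, 302, 514 and 436 CPM against 56.6, 34.7, 40.4 and 84.9 CPM, a step of 2.81 (2.11 to 3.52). For both genes, replicate 3 was the highest D2.1 tumor. H2-K1 had a log2 fold change of 1.40 (0.85 to 1.95), H2-Q4 of 1.25 (0.55 to 1.96), H2-D1 of 0.99 (0.35 to 1.62) and H2-T23 of 0.95 (0.28 to 1.61).

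B2m was at 2133, 2236, 3421 and 3339 CPM in D2.1 tumors in BALB/c mice and at 1898, 1146, 1582 and 2393 CPM in D2A1 tumors. The highest D2A1 tumor lay among the D2.1 tumors, and the log2 fold change of 0.67 (0.11 to 1.22) missed the threshold (adjusted p = 0.0641, edgeR) but passed it with the replicate number as a block (adjusted p = 0.0072). Tap1, at 0.91 (0.24 to 1.59), and Tap2, at 1.09 (0.40 to 1.77), were called. Nlrc5 was at 118, 151, 180 and 78.4 CPM against 129, 60.5, 23.5 and 73.5 CPM, so the lines overlapped widely, and its log2 fold change of 0.88 (-0.08 to 1.84) was not called (adjusted p = 0.147, edgeR). The 8 of 10 called compare with 16.8% of tested genes called higher. The 6 of 10 without overlap compare with 16.5% of genes that passed the expression filter over all tumors. The median was 1.04 against -0.02 over all genes. The count was 4 without replicate 3 of D2.1 tumors, without replicate 2 or 3 of D2A1 tumors, or without both D2.1 libraries with milk or skin transcripts, where H2-K1, H2-Q4, H2-Q6 and H2-Q7 were the members called.

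**Figure D2:**
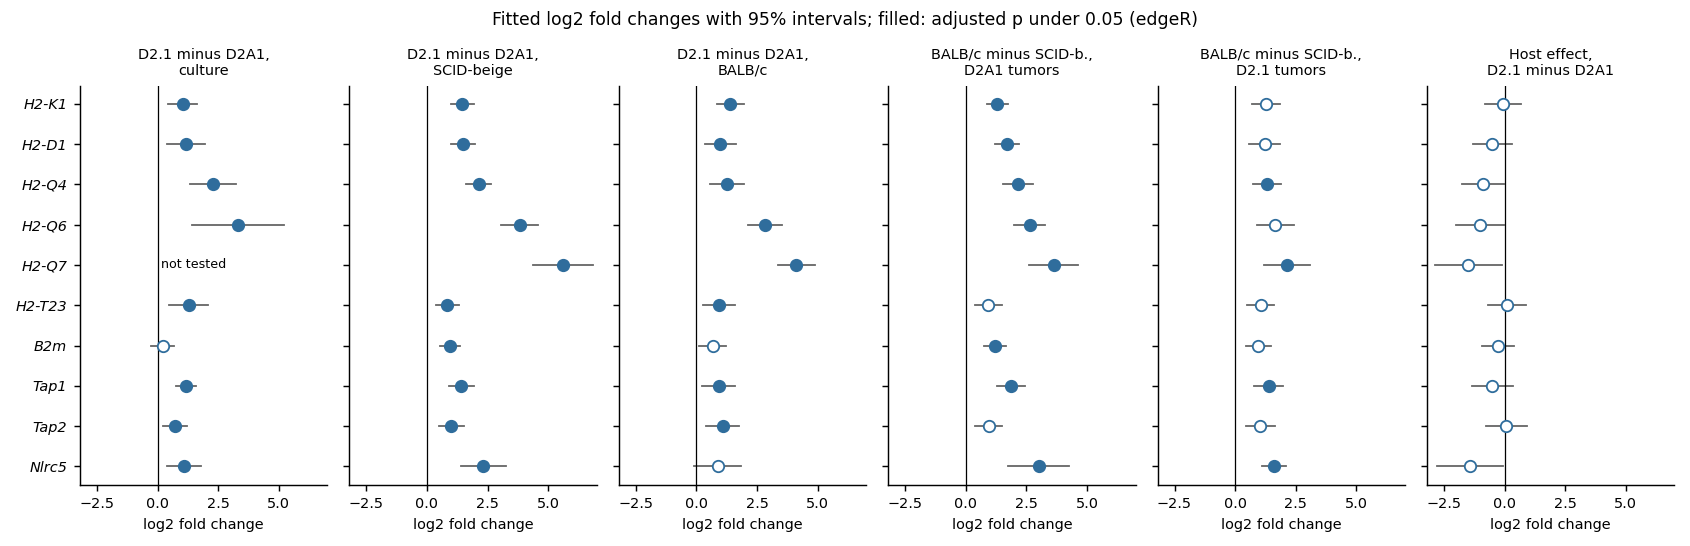
Fitted log2 fold change of each member with its 95% confidence interval, in 1 panel for each comparison of lines (D2.1 over D2A1), each comparison of hosts (BALB/c over SCID-beige) and the difference between the host effects. Filled points passed an adjusted p of 0.05 (edgeR quasi-likelihood test, Benjamini-Hochberg). H2-Q7 and H2-Q6 have the largest values between the lines in both hosts, and 0 points are filled in the last panel.

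The hosts were then compared for each line. D2A1 tumors in BALB/c mice had higher levels of H2-K1, H2-D1, H2-Q4, H2-Q6, H2-Q7, B2m, Tap1 and Nlrc5 than D2A1 tumors in SCID-beige mice, with H2-T23 and Tap2 short of the threshold. The D2A1 tumors in BALB/c mice are those compared with D2.1 tumors above, so the comparisons share libraries. H2-D1 was at 1380, 917, 1228 and 2070 CPM in BALB/c mice and at 388, 568, 396, 434 and 371 CPM in SCID-beige mice, with no overlap and a log2 fold change of 1.70 (1.20 to 2.20; adjusted p = 0.0097, edgeR). H2-Q4 (2.16, 1.54 to 2.79), H2-Q6 (2.65, 2.01 to 3.28) and H2-Q7 (3.62, 2.60 to 4.64) differed more, and H2-K1 (1.30, 0.87 to 1.73) less. Their values in single tumors are those given for the comparisons of lines.

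B2m rose by 1.21 (0.75 to 1.68; adjusted p = 0.0188, edgeR) and Tap1 by 1.87 (1.29 to 2.45). Tap1 was at 223, 117, 100.2 and 250.0 CPM in BALB/c mice and at 44.9, 60.0, 40.4, 48.2 and 42.7 CPM in SCID-beige mice, and its lowest tumor in BALB/c mice lay above the highest in SCID-beige mice. Tap2 was at 76.2, 40.1, 48.3 and 90.6 CPM against 30.0, 44.9, 31.2, 36.3 and 23.97 CPM, with overlap and an adjusted p of 0.122 (edgeR). Nlrc5 differed by 3.004 on the log2 scale with a wide interval of 1.74 to 4.27 (adjusted p = 0.0322, edgeR). The 8 of 10 members called stand against 0.906% of tested genes called higher in BALB/c mice. The 8 of 10 without overlap stand against 3.33% of genes that passed the expression filter over all tumors. The median was 1.79 and that of all genes 0.01. Without replicate 4 of D2A1 tumors in BALB/c mice, 5 members passed.

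D2.1 tumors also had higher fitted levels of all 10 members in BALB/c mice, and 4 of them, H2-Q4, H2-Q7, Tap1 and Nlrc5, passed the test. Nlrc5 was at 118, 151, 180 and 78.4 CPM in BALB/c mice and at 35.3, 52.2, 38.7, 46.8 and 50.1 CPM in SCID-beige mice, with no overlap and a log2 fold change of 1.59 (1.10 to 2.08; adjusted p = 0.0086, edgeR). Tap1 read 271, 255, 436 and 336 CPM against 100.1, 165, 68.0, 188 and 113 CPM, a step of 1.38 (0.77 to 1.99; adjusted p = 0.0431). Every tumor in BALB/c mice was above every tumor in SCID-beige mice for both genes.

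H2-Q7 rose by 2.15 (1.19 to 3.10) and H2-Q4 by 1.30 (0.72 to 1.87), both with an adjusted p of 0.0439 (edgeR). The other 6 had log2 fold changes of 0.96 to 1.65 with adjusted p of 0.0518 to 0.128. Of these, H2-K1 was at 210.9, 217.3, 383 and 338 CPM against 107, 144, 65.0, 165 and 129 CPM, without overlap. Of the 10 members, 4 were called where 0.871% of tested genes were called higher. No overlap was found for 8 of 10, all but H2-T23 and Tap2, and for 3.04% of genes that passed the expression filter over all tumors. The median was 1.28 and that of all genes -0.01. The count depended on single libraries and on the tool. It was 1 (Nlrc5) without replicate 1, 3 or 4 of D2.1 tumors in BALB/c mice or replicate 1 or 5 in SCID-beige mice, 2 without replicate 3 in SCID-beige mice and 10 without replicate 2 in BALB/c mice, while DESeq2 called 10, where it called 2.80% of genes higher. Without both libraries with milk or skin transcripts it was again 1, Nlrc5, at a log2 fold change of 1.91 (adjusted p = 0.0124, edgeR).

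Whether the host difference itself differed between the lines was tested as an interaction in all 18 tumors. By edgeR, 0 of 10 members were called, and DESeq2 also called 0, where it called 0.530% of genes. An unadjusted p under 0.05 was reached by 4, H2-Q4 (-0.89), H2-Q6 (-1.01), H2-Q7 (-1.49) and Nlrc5 (-1.44), where negative log2 values mean a smaller host difference in D2.1 tumors. Of all genes tested, 8.45% had an unadjusted p under 0.05 and 0.0187% were called. The intervals of these 4 run from -2.88 at the lowest to -0.01 at the highest. For H2-K1 the value was -0.06 (-0.79 to 0.66).

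The mix of heavy chains was described per length, as FPKM, so that genes can be set against each other. H2-D1 held most of the summed FPKM of the 6 heavy chains in every group, with a mean of 74.1% to 81.5% over the tumor groups and of 63.0% and 65.6% in cultured D2.1 and D2A1 cells. The cell and tumor tables used different gene lengths, such as 2102 and 903 bases for H2-D1 with 860 bases for B2m in both, so shares and ratios of FPKM in culture cannot be set against those in tumors. H2-Q6 and H2-Q7 together held 8.53% ± 0.415 (SD, n = 4) in D2.1 tumors in BALB/c mice, 5.64% ± 1.42 (n = 5) in D2.1 tumors in SCID-beige mice, 2.15% ± 0.158 (n = 4) in D2A1 tumors in BALB/c mice and 0.998% ± 0.127 (n = 5) in D2A1 tumors in SCID-beige mice. The Qa-2 share was thus higher in every D2.1 than in every D2A1 tumor in either host. Between hosts the D2A1 tumors did not overlap, whereas 1 D2.1 tumor in SCID-beige mice reached the range of those in BALB/c mice. In culture it was 0.598% ± 0.182 (n = 3) and 0.226% ± 0.0967 (n = 3). Close relatives share reads, which bears on this share more than on the sum.

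**Figure D3:**
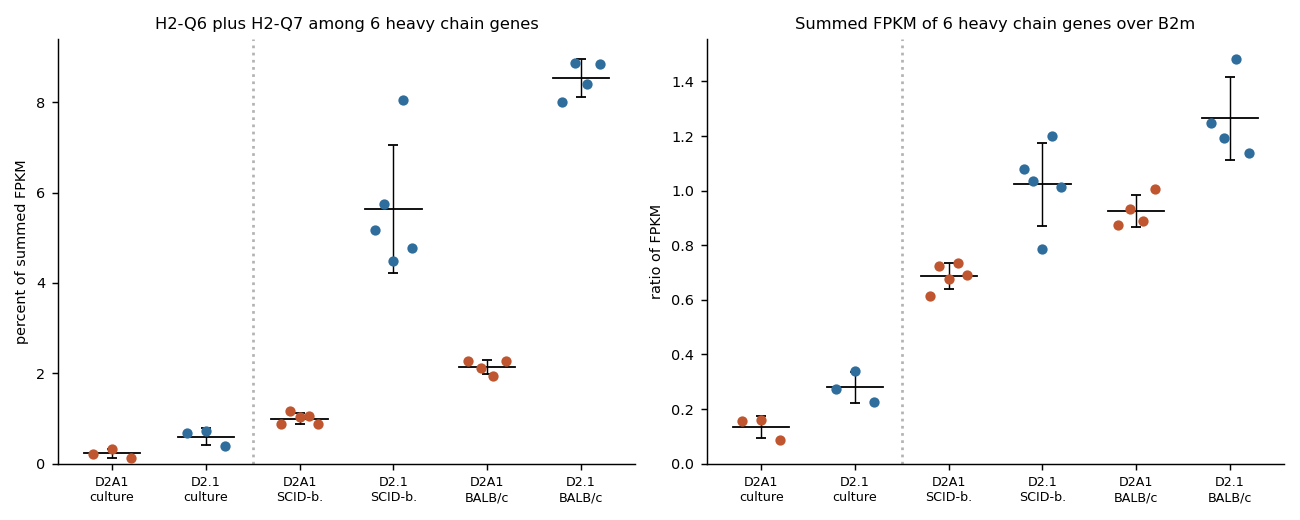
Left, share of the summed FPKM of the 6 heavy chains held by H2-Q6 and H2-Q7, in percent. Right, summed heavy chain FPKM divided by B2m FPKM. Points are libraries and bars with error bars are the mean and SD of each of the 6 groups. Among tumors both measures have their highest mean in D2.1 tumors in BALB/c mice (8.53% and 1.27) and their lowest in D2A1 tumors in SCID-beige mice (0.998% and 0.688). The dotted line separates the cell and tumor tables, whose gene lengths differ.

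The sum over all annotated H2 class I heavy chain genes, which depends less on how reads are split among them, was 5224 ± 1646 CPM (SD, n = 4) in D2.1 and 2246 ± 765 CPM (n = 4) in D2A1 tumors in BALB/c mice, and 2166 ± 726 CPM (n = 5) and 756 ± 127 CPM (n = 5) in SCID-beige mice. Ratios of means were 2.33 and 2.87 between the lines, 2.41 and 2.97 between the hosts for D2.1 and D2A1, and 1.81 between the cultured lines. In each of these comparisons the libraries did not overlap. The heavy chain to light chain ratio in FPKM was 1.27 ± 0.152 in D2.1 and 0.926 ± 0.0593 in D2A1 tumors in BALB/c mice, and 1.02 ± 0.152 and 0.688 ± 0.0474 in SCID-beige mice. With the lengths of the cell table it was 0.279 ± 0.0562 in D2.1 and 0.134 ± 0.0416 in D2A1 cultures.

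Other genes of the pathway were counted in 4 lists. Among 26 further class I heavy chain and class I-like genes, 21 matched the annotation. In culture 8 were tested, 3 rose in D2.1 cells and 1 fell. Over all genes tested, 24.2% were higher and 20.7% lower in cultured D2.1 cells, 16.8% and 15.8% in tumors in BALB/c mice, and 17.2% and 14.8% in SCID-beige mice. Between hosts, 0.871% were higher in BALB/c mice for D2.1 and 0.906% for D2A1. The counts of all 4 lists are to be read against the share of the same comparison. The 3 that rose in cultured D2.1 cells were Fcgrt (5.94), which encodes the neonatal Fc receptor, Mr1 (3.50), which presents vitamin B metabolites, and Cd1d1 (1.84), which presents lipids. In tumors, 10 of 17 were higher and 1 was lower in D2.1 in BALB/c mice, and 8 of 13 were higher and 0 lower in SCID-beige mice. H2-Q5 (2.22 in BALB/c and 2.47 in SCID-beige mice) was among the 3 largest in both, with H2-Q10 (2.04) and H2-K2 (1.75) in SCID-beige mice. In BALB/c mice H2-M5 was lower (-2.36) and H2-M2 higher, at 5.51 ± 4.62 CPM (SD, n = 4) against 2 counts or fewer in every D2A1 tumor. Between hosts, 5 of 15 were higher in BALB/c mice for D2.1 and 4 of 15 for D2A1, with 0 lower. H2-K2, a relative of H2-K1, was called in both host comparisons, at log2 fold changes of 1.87 for D2.1 and 1.71 for D2A1, as were H2-Q5 (1.77 and 2.01) and H2-T10 (1.63 and 1.32).

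Of 12 genes for chaperones, peptide trimming and loading, 11 matched and were tested. Of these 11, 2 were higher and 2 lower in cultured D2.1 cells, 1 and 2 in tumors in BALB/c mice, and 2 and 1 in SCID-beige mice, so the shares were near or below those over all genes. Tapasin was called in each of these, with Tapbp log2 fold changes of 1.44 in culture, 1.43 in BALB/c mice and 1.42 in SCID-beige mice. Tapbp was at 1233 ± 158 CPM (SD, n = 4) in D2.1 and 460 ± 48.5 CPM (n = 4) in D2A1 tumors in BALB/c mice. The tapasin relative Tapbpl, which edits peptides, went the other way, at -0.91, -1.005 and -1.77. The others among the largest were Sec61g (0.74) in culture, the peptidase gene Tpp2 (-0.83) in BALB/c mice and calreticulin, Calr (0.74), in SCID-beige mice. Erap1, which encodes the peptide-trimming aminopeptidase, was not called in any comparison. Between hosts 0 genes of this list were called for either line by edgeR, and Tapbp stood at 0.40 for D2.1 (adjusted p = 0.346) and 0.37 for D2A1 (adjusted p = 0.323).

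**Figure D4:**
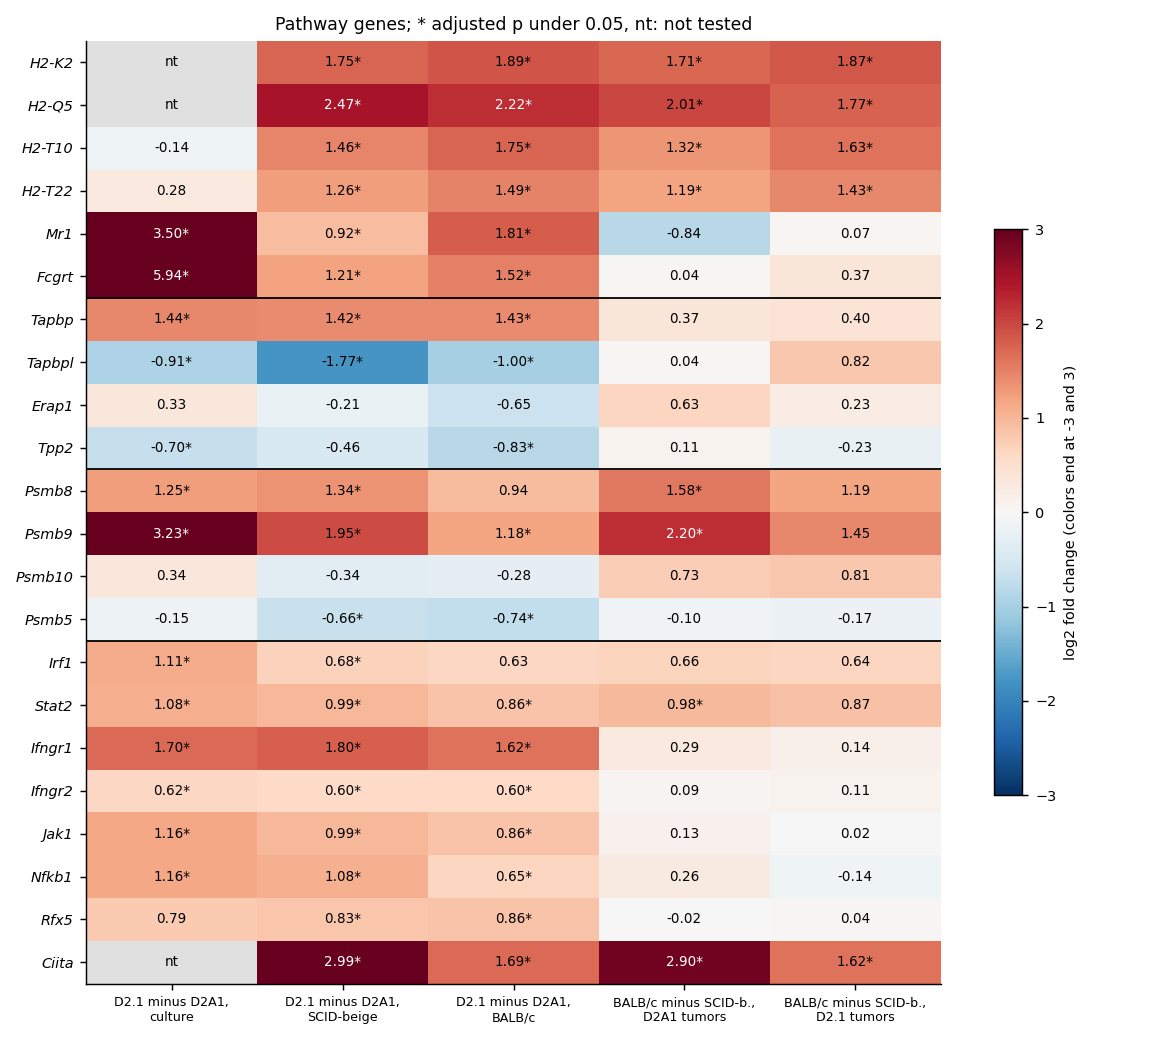
Log2 fold change of 22 genes of the pathway that are not members, in 5 comparisons (D2.1 over D2A1 in culture and in each host, BALB/c over SCID-beige for each line). A star marks an adjusted p under 0.05 (edgeR), nt marks genes not tested, and the colors end at -3 and 3. Tapbp is called between the lines in all 3 settings and not between hosts.

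Among 10 proteasome genes, 4 were higher and 1 lower in cultured D2.1 cells, 1 and 1 in D2.1 tumors in BALB/c mice, and 2 and 2 in SCID-beige mice. The 1 and 2 higher genes in tumors are shares near the 16.8% and 17.2% over all genes. Psmb9, the neighbour of Tap1, was higher in D2.1 in culture (3.23), in BALB/c mice (1.18, adjusted p = 0.0386, edgeR) and in SCID-beige mice (1.95). Psme2, a subunit of the proteasome activator PA28, was higher in culture (0.76). Psmb8 was called in culture (1.25) and in SCID-beige mice (1.34), and Psmb5, the constitutive counterpart of Psmb8, was lower in D2.1 tumors in both hosts (-0.74 and -0.66). Between hosts, Psmb9 (2.20) and Psmb8 (1.58) rose in BALB/c mice for D2A1, 2 of 10 genes, while for D2.1 the count was 0 by edgeR, with Psmb9 at 1.45 (adjusted p = 0.0518) and Psmb8 at 1.19 (adjusted p = 0.107). Psmb10 was not called in any comparison.

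Of 26 genes for interferon signalling and class I transcription, 22 were tested in culture, where 8 were higher and 5 lower in D2.1 cells, against 24.2% and 20.7% over all genes. In tumors, 8 of 25 were higher and 1 lower in BALB/c mice, and 11 of 24 were higher in SCID-beige mice, against 16.8% and 17.2% higher over all genes. Ifngr1, which encodes a chain of the interferon gamma receptor, was higher in D2.1 in culture (1.70), in BALB/c mice (1.62) and in SCID-beige mice (1.80). Jak1 (1.16) and Nfkb1 (1.16) were the next largest in culture, Ciita (1.69), the class II transactivator, and Jak2 (-1.02) were next in BALB/c mice, and Ciita (2.99) and Nfkb1 (1.08) in SCID-beige mice. Irf1 was higher in culture (1.11, adjusted p = 6e-04, edgeR) and in SCID-beige mice (0.68, adjusted p = 0.0049) and stood at 0.63 in BALB/c mice (adjusted p = 0.115). Between hosts, 1 of 25 rose for D2.1, Ciita (1.62), and 2 of 24 for D2A1, Ciita (2.90) and Stat2 (0.98), against 0.871% and 0.906% over all genes. Ifng itself had 0 counts in every cultured library. In the interaction test 0 genes of these 4 lists were called by edgeR.

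Across tumors, 9 of the members varied together within groups and Nlrc5 did not vary with them. Correlations of log2 CPM over the 18 tumors, with group means removed, are descriptions, since the points share libraries, depth and the normalization. Among the 36 pairs without Nlrc5, Pearson's r ran from 0.744 to 0.976 with a median of 0.888. For the 9 pairs with Nlrc5 it ran from -0.02 to 0.332 with a median of 0.158. Psmb8 had r of 0.835 to 0.959 with the 9 other members and 0.14 with Nlrc5, and Irf1 0.576 to 0.882 and 0.325. The leukocyte marker Ptprc and the macrophage marker Adgre1 showed the reverse order, with -0.481 to -0.218 and -0.43 to -0.187 for the 9 other members, against 0.673 and 0.595 for Nlrc5. The T cell marker Cd3e had 0.46 to 0.774 with the 9 and 0.309 with Nlrc5.

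**Figure D5:**
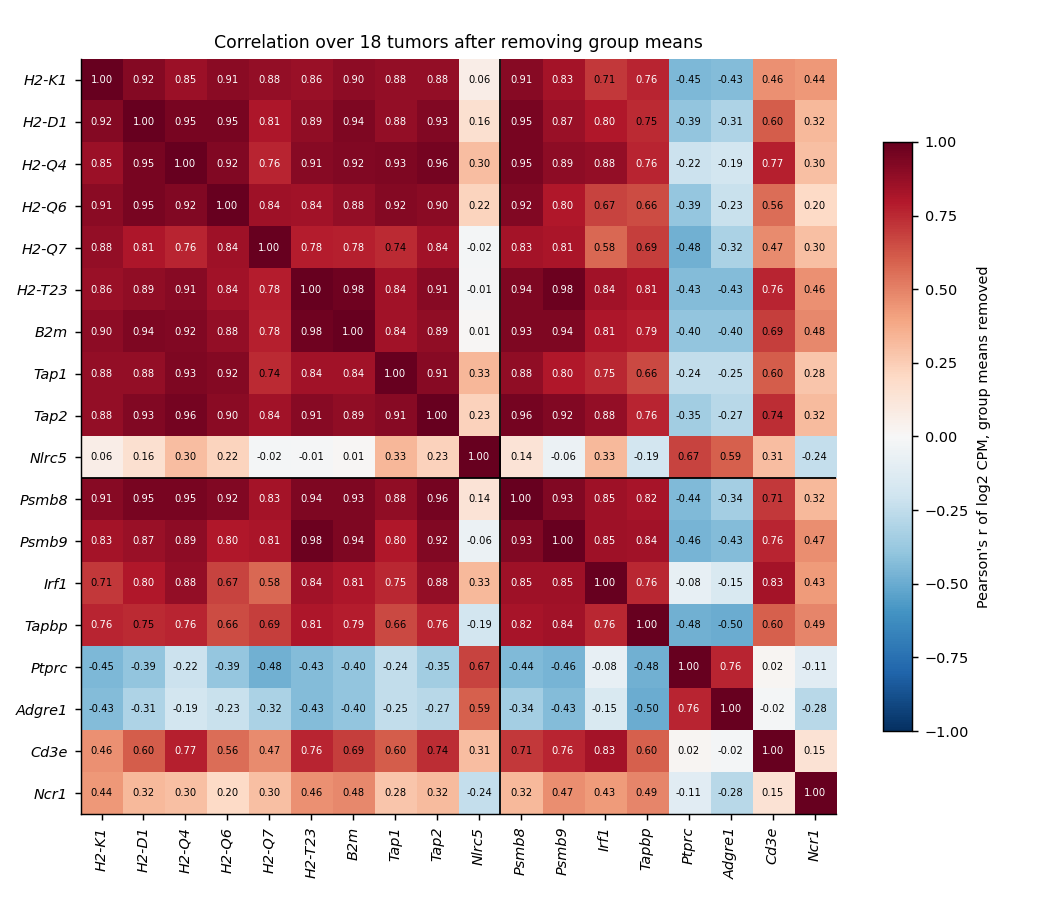
Pearson's r of log2 CPM between members, and of members with genes of the pathway and markers of leukocytes, over 18 tumors after the group means were removed. Colors run from -1 to 1. Members other than Nlrc5 form 1 block with r of at least 0.744, and Nlrc5 stands outside it.

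The genes most like the members were then named by the correlation of their log2 CPM with the mean profile of the members over the 18 tumors, among 13662 genes. With group means removed these were Uba7 (r = 0.939), which encodes the activating enzyme for the ubiquitin-like protein ISG15, Ifi47 (0.895), Tcirg1 (0.884), Igtp (0.877) and Trafd1 (0.869). Ifi47 and Igtp encode interferon-inducible GTPases. With group means kept they were the class II genes H2-Ab1 (0.964), H2-Eb1 (0.957), Cd74 (0.955) and H2-Aa (0.951), and Batf2 (0.948).

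T cell marker transcripts were highest in D2.1 tumors in BALB/c mice and lowest in D2A1 tumors in SCID-beige mice, as were the members. The summed level of 7 T cell markers was 70.2 to 191 CPM in D2.1 tumors in BALB/c mice, 8.72 to 20.4 in D2.1 tumors in SCID-beige mice, 7.37 to 22.6 in D2A1 tumors in BALB/c mice and 1.01 to 3.61 in D2A1 tumors in SCID-beige mice. Called higher were 6 of 7 between hosts for D2.1, 4 of 6 tested between hosts for D2A1, 7 of 7 between lines in BALB/c mice and 2 of 2 tested in SCID-beige mice. Over all tested genes these shares were 0.871%, 0.906%, 16.8% and 17.2%. Calls for the other cell types are to be read against them. The summed level of 4 NK markers was 57.5 to 78.6, 16.5 to 50.7, 0.362 to 7.78 and 0.804 to 2.48 CPM in the same order of groups. Of these, 4 of 4 were called higher in D2.1 tumors in either host, 1 of 4 between hosts for D2.1 and 0 of 1 tested for D2A1. For 6 macrophage markers the ranges overlapped more, at 1764 to 2320, 954 to 2172, 1478 to 2847 and 797 to 1590 CPM. Called higher were 1 of 6 between lines in BALB/c mice, 2 of 6 in SCID-beige mice, 0 of 6 between hosts for D2.1 and 1 of 6 for D2A1. Ptprc was called only between the lines in SCID-beige mice (1.24, adjusted p = 0.0128, edgeR). The 4 dendritic cell markers summed to 26.4 to 30.2, 9.97 to 18.6, 5.45 to 12.3 and 6.93 to 8.90 CPM. In D2.1 tumors 3 of 4 were called higher in either host, and 1 of 4 was called lower in SCID-beige mice. The 4 B cell markers summed to 6.33 to 77.3, 2.39 to 5.81, 0.232 to 0.778 and 0.186 to 0.558 CPM. Of these, 1 of 1 tested was called higher in D2.1 tumors in either host. The 3 endothelial markers summed to less in D2.1 tumors, at 66.2 to 113 and 45.0 to 75.2 CPM against 171 to 230 and 152 to 228 CPM in D2A1 tumors in BALB/c and SCID-beige mice. Called lower were 2 of 3 in BALB/c and 3 of 3 in SCID-beige mice, against 15.8% and 14.8% of all tested genes. The part of these cell types in the tumor results was not tested.

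In culture the T cell markers were at 3 counts or fewer in every library for 7 of 7 genes, Ptprc was at 4 counts or fewer, and macrophage markers summed to 7.57 to 9.74 CPM in D2.1 cells and 1.14 to 2.61 CPM in D2A1 cells. Among NK markers, Ncr1, Gzma and Prf1 were at that floor, whereas Klrb1c had 58 to 108 counts in D2.1 cells. Dendritic cell markers summed to 0.643 to 1.02 CPM in D2.1 cells and 6.40 to 9.05 CPM in D2A1 cells. In D2A1 cells Flt3, Xcr1 and Clec9a of these markers were at the floor. The 8 members called in culture were therefore measured in libraries whose T cell markers were at or near 0. Mammary epithelial markers, which check the labelled cell type, summed to 2342 to 4644 CPM in D2.1 cells and 130 to 339 CPM in D2A1 cells. In tumors in BALB/c mice they summed to 333 to 521 CPM for D2.1 and 512 to 596 CPM for D2A1. The ranges in SCID-beige mice were 310 to 1149 CPM for D2.1 and 441.5 to 878 CPM for D2A1, so the order of the sums in culture was not kept. By gene, 3 of 3 tested epithelial markers were called higher in cultured D2.1 cells. In D2.1 tumors 2 of 4 were called higher and 1 lower in either host.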

How the data were processed

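Bulk RNA-seq of 6 cultured and 18 tumor libraries was used. The authors made total RNA libraries through Novogene on an Illumina NovaSeq. STAR and mm10 are named in the submitters' processing notes, while versions, the counting program, the annotation and the strand setting are not given in the sources used here, so antisense overlaps could not be separated. The authors deposited unnormalized counts per gene and FPKM values, which equal counts over gene length and library total for 100% of genes within 0.1%, with gene lengths that differ between the cell and tumor tables. Identifiers were matched to GENCODE M21, and those without a match held 0.0969% (cells) and 0.00594% (tumors) of counts. Groups came from the sample labels.

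Counts were tested with edgeR 4.0.16 in R 4.3.3 (TMM, filterByExpr, robust quasi-likelihood fits, limma 3.58.1 as its base), with Benjamini-Hochberg adjustment over all genes tested and a threshold of 0.05. Each fit used the 2 groups compared, and the interaction used all 4 tumor groups. Confidence intervals used the standard error, the log2 fold change divided by the square root of F. Log2 CPM used a prior count of 2. The members and the gene lists were chosen with earlier results of these data known. Named genes were the members, for each pathway list the 3 called genes with the largest fold changes and fixed genes of interest, and the 5 most alike genes. No replicates were copies (lowest chi-square per degree of freedom 5.20). Deviations of libraries with the same replicate number correlated at 0.184 to 0.491 in culture and at 0.1004 to 0.491 between lines in BALB/c mice. Libraries with different numbers were not compared, and no shared day or batch is stated. Whether the numbers pair libraries is therefore open, and the main fits did not use them. Alternatives were DESeq2 1.42.0, its size factors, a filter of 10 counts or none, a log2 fold change beyond 1, 1 fit of all tumors, the replicate block and each library left out. Leaving out both libraries with milk or skin transcripts was chosen after seeing the data. The fits were tested on simulated data. A gene of the interferon list is not reported here. Shared transcript sequence was counted in 50-base stretches, and sequences were compared in Python 3.11.15 with Biopython 1.88.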

Additional observations from a re-analysis of the deposited data

Results flagged for a closer look

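Each of the 10 genes was examined for a tumor standing apart within its group, in 40 sets of 4 or 5 values, of which chance flags about 1 in 20. One was found, for H2-Q7 in D2A1 tumors in SCID-beige mice. Replicate 5 was at 0.1262 CPM, which is 2 counts, while the nearest other tumor was at 0.837 CPM and the highest at 1.459 CPM, so that its gap took up 0.73 of the range of the group. The value lies below the floor of 3 counts. H2-Q7 was called between the lines in SCID-beige mice and between the hosts of D2A1 tumors with and without any single library.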

How the results depend on the processing

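Of 1008 values of a member under an alternative, 887 stayed on the same side of the threshold, 32 passed it newly and 89 no longer passed it. Direction was compared only for values called in the main fit or under the alternative. Outside the interaction, 767 of 768 were above 0, the exception being B2m in culture (-0.06) with 1 D2.1 library left out. Between the hosts of D2.1 tumors, DESeq2 called 10 members and 588 genes, 1 fit of all tumors 7 and 261, no filter 275 genes, and the data without the libraries with milk or skin transcripts 1 and 11, against 4 and 133. Without those libraries, 4 members were called between the lines in BALB/c mice and 0 genes in the interaction. The interaction called 92 genes by DESeq2, 6 with DESeq2 size factors and 7 without a filter, against 3. DESeq2 called 518 genes between the hosts of D2A1 tumors, against 170. A log2 fold change beyond 1 left 2786 genes in culture, 5 members and 2939 genes between lines in BALB/c mice, and 2610 genes in SCID-beige mice. The cause of these shifts was not tested.

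With each library left out, members called were 4 to 8 in culture, 4 to 9 between lines in BALB/c mice, 10 to 10 in SCID-beige mice, 1 to 10 between hosts for D2.1, 5 to 8 for D2A1 and 0 to 0 in the interaction. Genes called were 4375 to 5908, 4074 to 5046, 3969 to 4916, 26 to 314, 27 to 172 and 0 to 12. The replicate block, where the numbers pair libraries, changed 1 call, that of B2m in BALB/c mice. Between the lines in SCID-beige mice the correlations ran from -0.161 to 0.344, which does not settle whether the numbers pair libraries. Between hosts they ran from -0.441 to 0.169, and the numbers were not taken to pair libraries. With the block 10 members passed between the lines in SCID-beige mice, 0 members and 14 genes between hosts for D2.1, and 0 members and 0 genes for D2A1. H2-Q7 in culture, which reached a test only under alternatives, had adjusted p of 0.219 to 0.584 there. Counts near 3 limit what can be said of it at this depth.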
